A study of Mus musculus with 32 samples.

Results

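The genes described here lie between 20 and 50 Mb of mouse chromosome 7 (build GRCm38), a segment picked out because its genes were lower in Ddr1 knockout than in wild-type libraries of the E0771 mammary carcinoma line. A list of 57 symbols defined them, of which 55 stood under that symbol in all 4 deposited tables, and these 55 are called the members. They start between positions 24546289 and 45522916, among 644 protein-coding genes annotated as starting in the segment. Supt5h and Uri1, the other 2 listed genes, carried another symbol in 2 of the tables and are described apart. The members were chosen by their knockout minus wild-type differences in culture, in Rag1-/- hosts and at day 4, so for those contrasts the values are a description, with no test, and the members' shift in them is not a finding. The comparison of an antibody with control IgG took no part in the choice and was tested.

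The study measured RNA of E0771, a carcinoma line from the mammary gland of a C57BL/6 mouse, with wild-type or knocked-out Ddr1, the gene of a collagen-binding receptor tyrosine kinase. In culture, 3 wild-type libraries (parental cells, cells titled EV and cells titled Ctrl, numbered 1 to 3 here) stood beside 2 knockout libraries (derivatives titled 3-6 and 3-7, numbered 1 and 2). As tumours in Rag1-/- mice, hosts without mature lymphocytes, 5 wild-type libraries stood beside 5 knockout libraries. In C57BL/6 mice that received tumours passed through Rag1-/- hosts, 4 wild-type libraries stood beside 5 knockout libraries, titled day 4. A further C57BL/6 set, titled day 6, held 4 tumours given control IgG and 4 given an antibody labelled hDDR1 ECD, and its labels give no Ddr1 genotype. The labels give neither the ages of the mice, nor whether the 3-6 and 3-7 derivatives are single clones, nor which derivative formed the tumours, nor the culture or animal behind each library, so spreads and p-values measure only the differences between these libraries.

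Depth ran from 18967300 to 39732635 reads per library. Values are normalized read counts, and a log2 difference is limma's estimate on log2(normalized count + 1). Ddr1 checked the labels: its normalized counts in knockout libraries were 914 and 665 in culture, against 6120.4, 5854 and 7187 in wild-type cells, and every knockout tumour library of the Rag1-/- and day 4 sets was likewise below every wild-type one. The tumours are bulk tissue, in which fewer cells of a type and less RNA per cell cannot be told apart. One day 4 wild-type library, number 3, stood apart from its group in the members' level and several day 4 values are also given without it. The epithelial markers Krt8, Krt18, Krt19, Cdh1 and Epcam summed to between 164 and 717 RPM (reads scaled to library depth) over all libraries. None of them was at 0 in any group. The sum need not follow each marker. In culture it ran from 205 to 239 RPM in wild-type and from 164 to 186 RPM in knockout libraries. Only 2 of the 5 markers were tested there, with differences of -0.36 and 1.92. In Rag1-/- hosts 4 were tested, with differences from -0.82 to 2.15. Of these 4, limma called 1 higher, as it did 11.3% of all tested genes. At day 4 the median log2 difference of the 5 markers was 3.49 (-0.22 to 4.43), with 1 below 0. At day 6 it was 2.02 (0.32 to 5.02), antibody minus IgG. None was called by limma at day 4 or day 6.

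The members form no pathway. They are neighbours in a gene-dense stretch whose products serve most housekeeping tasks of a cell, among them ribosomal proteins, splicing and export factors, subunits of the proteasome and of the respiratory chain, and enzymes of glycogen and amino acid metabolism. They share a stretch of chromosome. DNA copies and chromatin of the segment were not analysed here.

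Promoters are shown for 4 genes, picked after their values were seen. Tmem145 and Prr19 are the neighbouring pair with the lowest values of the segment in Rag1-/- hosts, Rps19 is the lowest ribosomal protein gene among the members in those hosts, and Ccne1 is the member nearest to no difference. Each sequence is RefSeq's, on GRCm38.p6, and runs 5′ to 3′ on the gene's own strand from 250 bases before to 50 bases after the start. Capitals mark the GC box (GGGCGG or CCGCCC), the CCAAT box (CCAAT or ATTGG) and the ETS core (CCGGAAG or CTTCCGG), searched on both strands, and no marked match overlaps another.
Tmem145, chr7:25305858-25306157, plus strand: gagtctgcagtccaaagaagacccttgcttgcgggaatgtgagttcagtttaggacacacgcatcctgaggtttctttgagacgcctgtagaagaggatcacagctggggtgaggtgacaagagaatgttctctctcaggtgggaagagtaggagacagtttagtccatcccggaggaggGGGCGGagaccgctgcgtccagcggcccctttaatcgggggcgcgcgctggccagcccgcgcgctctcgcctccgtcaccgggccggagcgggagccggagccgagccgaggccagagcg
Prr19, chr7:25301109-25301408, plus strand: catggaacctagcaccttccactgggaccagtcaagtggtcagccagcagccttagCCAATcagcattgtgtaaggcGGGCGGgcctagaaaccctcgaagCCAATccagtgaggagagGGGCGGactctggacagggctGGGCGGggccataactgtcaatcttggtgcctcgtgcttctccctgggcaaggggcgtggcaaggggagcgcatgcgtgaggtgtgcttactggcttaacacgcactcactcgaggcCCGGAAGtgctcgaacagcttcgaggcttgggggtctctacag
Rps19, chr7:24884342-24884641, plus strand: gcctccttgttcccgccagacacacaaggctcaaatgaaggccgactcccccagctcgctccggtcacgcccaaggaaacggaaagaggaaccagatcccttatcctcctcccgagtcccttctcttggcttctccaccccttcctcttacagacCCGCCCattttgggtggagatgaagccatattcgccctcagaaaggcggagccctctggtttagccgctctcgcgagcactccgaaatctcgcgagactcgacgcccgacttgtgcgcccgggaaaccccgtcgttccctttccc
Ccne1, chr7:38107441-38107740, minus strand: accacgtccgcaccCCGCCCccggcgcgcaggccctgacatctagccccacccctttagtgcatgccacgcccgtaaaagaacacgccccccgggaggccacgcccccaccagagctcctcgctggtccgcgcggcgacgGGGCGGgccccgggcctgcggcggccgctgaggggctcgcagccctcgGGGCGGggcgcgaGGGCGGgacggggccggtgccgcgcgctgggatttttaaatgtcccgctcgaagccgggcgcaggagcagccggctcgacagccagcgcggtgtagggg
The promoter of Prr19 held 3 GC boxes, 2 CCAAT boxes and 1 ETS core, those of Tmem145 and Rps19 held 1 GC box each, and that of Ccne1 held 4 GC boxes. A promoter was matched for 54 members, all but Pafah1b3. The GC box was present in 75.9% of these, in 59.3% of the 189 promoters of other tested genes of the segment and in 35.9% of all 27025 mouse promoters in the table. The CCAAT box was in 44.4%, 38.6% and 37.9% of the same sets, and the TATA box (TATAAA or TTTATA) in 3.70%, 7.94% and 14.2%. The E-box CACGTG was in 11.1% of the members' promoters, 11.1% of those of the other genes of the segment and 7.24% of all. The ETS core was in 3.70%, 21.7% and 9.12%. The median GC content was 58.5% for the members, 57.7% for the other genes of the segment and 52.7% over all promoters. A match is a run of letters, not a measured binding site.

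Along chromosome 7 the lower values in knockout libraries had edges in culture, the distal one resting on few genes. In culture the median log2 difference of tested genes was 0.02 from 15 to 16 Mb, 0.05 from 16 to 17 Mb and 0.11 from 18 to 19 Mb. From 19 to 20 Mb it was -0.35, with all 38 tested genes below 0. No gene was tested from 20 to 24 Mb. The median was -0.30 from 24 to 25 Mb (20 of 24 genes below 0) and -0.57 from 25 to 26 Mb (25 of 25). Towards the distal end it was -0.59 from 45 to 46 Mb (52 of 54 below 0) and -0.40 from 46 to 47 Mb (11 of 11). From 48 to 49 Mb it was 0.21 over 3 genes. The run of genes below 0 in culture therefore began at about 19 Mb, outside the boundary of 20 Mb used for the list.

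In Rag1-/- hosts bins of the same size gave a median of -0.18 from 15 to 16 Mb (4 of 4 genes below 0). The median was -0.12 from 16 to 17 Mb (23 genes) and -0.05 from 18 to 19 Mb (7 genes). From 19 to 20 Mb it was -0.26, with 33 of 39 genes below 0. It was -0.35 from 25 to 26 Mb, -0.39 from 45 to 46 Mb and -0.19 from 46 to 47 Mb. From 48 to 49 Mb it was -0.15 (2 of 3 below 0), where culture had 0.21. The proximal edge was less sharp there than in culture. At day 4 the median was -0.08 from 18 to 19 Mb, -0.20 from 19 to 20 Mb (31 of 41 below 0) and -0.35 from 25 to 26 Mb. It was -0.29 from 45 to 46 Mb, -0.30 from 46 to 47 Mb and -0.36 from 48 to 49 Mb (4 of 5 below 0). The middle of the segment stood nearer to 0 at day 4, with -0.04 from 30 to 35 Mb and -0.07 from 35 to 40 Mb. Over wider stretches farther out on chromosome 7 the medians were nearer to 0, though single bins of few genes could stand apart. From 70 to 75 Mb the median was -0.35 in culture (n = 4), -0.27 in Rag1-/- hosts (n = 6) and 0.31 at day 4 (n = 8). Before 15 Mb the medians were 0.00 in culture, -0.08 in Rag1-/- hosts and -0.01 at day 4, and beyond 50 Mb they were 0.01, -0.04 and 0.03.

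**Figure D1:**
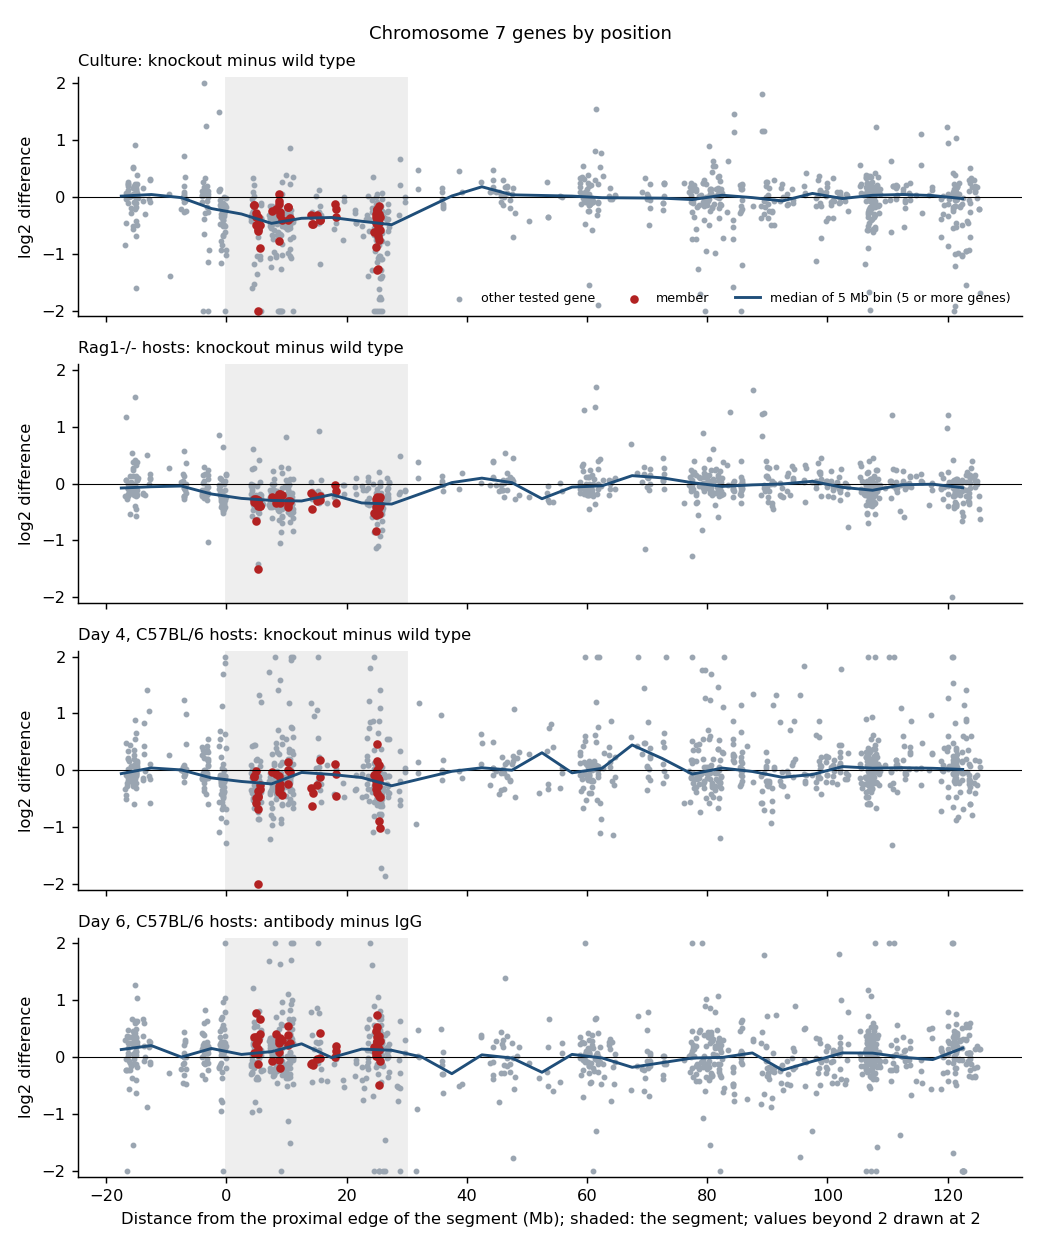
Log2 difference of each tested gene of chromosome 7 (points, red for members) against its distance in Mb from the 20 Mb edge of the segment, with the median of each 5 Mb bin as a line, for the 4 comparisons. In the 3 knockout comparisons the line dips within and just before the shaded segment, least so in its middle at day 4, and at day 6 it does not. In Rag1-/- hosts the line also falls to -0.27 in the bin from 70 to 75 Mb of the chromosome, which holds 6 genes.

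The tested genes nearest to each edge, at a mean of 50 or more, did not all follow their side. Pvr (chromosome 7, 19903578 to 19921160, minus strand), which encodes a cell adhesion receptor of the nectin group and lies just outside 20 Mb, had differences of -0.03 in culture, 0.17 in Rag1-/- hosts and -0.90 at day 4. Zfp180 (24081924 to 24107713, plus strand), a zinc finger gene and the first one inside, had -0.42, -0.18 and -0.34. At the far end Prmt3 (49778346 to 49858265, plus strand), an arginine methyltransferase gene just inside 50 Mb, had 0.00, -0.11 and -0.04. Fancf (51860577 to 51862267, minus strand), a gene of the Fanconi anaemia repair pathway just outside, had 0.47, 0.10 and -0.04. Prmt3 thus lay inside the boundary without the lower values seen at Zfp180 in culture and at day 4. In Rag1-/- hosts the 2 genes stood closer. There 4 knockout libraries were below every wild-type library for Prmt3, and 5 were for Zfp180. The other threshold, a mean normalized count of 10, cut no member in the knockout comparisons. The lowest member means there were those of Tmem145, at 31.0 in culture, 75.4 in Rag1-/- hosts and 22.5 at day 4, and the next lowest were 397 for Atf5 in culture, 298 for Cd37 in Rag1-/- hosts and 642 for Cd37 at day 4.

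The genome was also divided into windows of 30 Mb, with chromosome 7 divided at the edges of the segment, and 96 windows held 20 or more tested genes. The segment was the lowest window in all 3 knockout comparisons, with medians over all its tested genes of -0.41 in culture, -0.29 in Rag1-/- hosts and -0.19 at day 4. The next lowest medians were -0.17 on chromosome 9 in culture, -0.12 on chromosome 7 before 20 Mb in Rag1-/- hosts and -0.13 on chromosome 10 at day 4. At day 6 the segment had a median of 0.12, and 2 windows were higher. This ranking uses the contrasts that drew attention to the segment and describes it only.

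**Figure D2:**
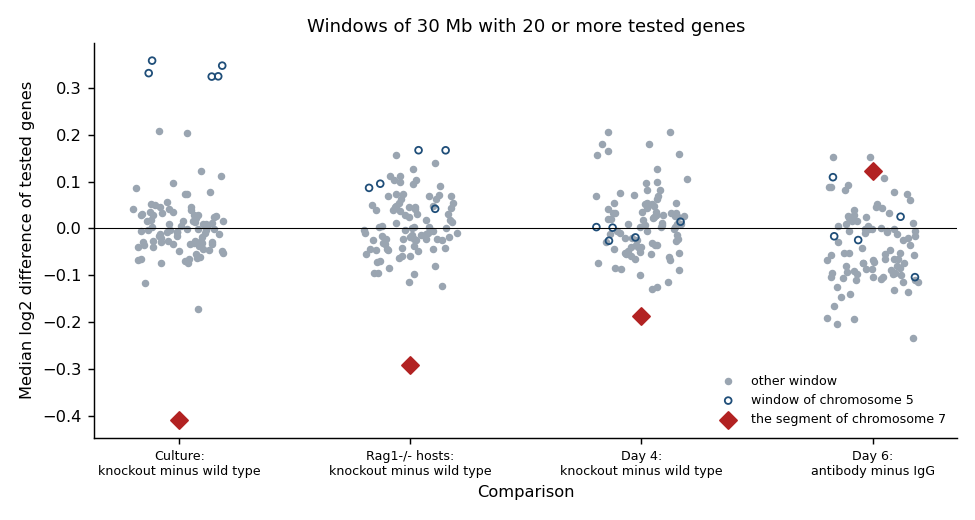
Median log2 difference of the tested genes of each 30 Mb window (points) in the 4 comparisons, with the chromosome 7 segment as a diamond and windows of chromosome 5 as open circles. The diamond is the lowest point in the 3 knockout comparisons, at -0.41, -0.29 and -0.19, and lies at 0.12 at day 6.

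The members shared this picture. Their median log2 difference, knockout minus wild type, was -0.38 in culture, -0.33 in Rag1-/- hosts and -0.25 at day 4. Of the 55, the numbers below 0 were 54, 55 and 47. Over the tested genes outside the segment the medians were 0.01, 0.00 and 0.01. The other tested genes of the segment had medians of -0.41 (n = 231), -0.27 (n = 240) and -0.18 (n = 282). In culture the members' median was thus nearer to 0 than that of their neighbours. In culture, limma called 4 members lower at an adjusted p under 0.05, where 0.311% of all tested genes were called lower: Bckdha, Tmem145, Gys1 and Cd37, a leukocyte tetraspanin gene. This count rested on single libraries, since it was 21 without wild-type library 1 and 0 without any one of the other 4. There edgeR called 3 (0.201%) and DESeq2 33 (4.89%). Both knockout libraries were below all 3 wild-type libraries for 50 members, where the share over all tested genes was 17.7%. Among the Rag1-/- tumours 50 members were called lower by limma (11.4% of all tested genes), 50 by edgeR (11.5%) and 52 by DESeq2 (12.5%), and for 36 every knockout library was below every wild-type library (7.14%). At day 4 limma called 0 members lower (0.0284%), with 21 members at an unadjusted p under 0.05, as were 15% of all tested genes. Without knockout library 5 the limma count was 2. At day 4 edgeR called 0 (0.0213%), DESeq2 called 8 (2.64%), and 11 members had no overlap (3.85%). These counts come from the contrasts that chose the genes.

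By library, the shift is the median over members of log2(normalized count + 1) minus the mean of the wild-type libraries, each wild-type library being set against the others of its group. In culture the wild-type libraries stood at 0.00, -0.03 and 0.01 and the knockout libraries at -0.40 and -0.38. The groups did not overlap, and both derivatives stood at nearly the same level. Among the Rag1-/- tumours the wild-type libraries stood at 0.05, 0.00, 0.01, 0.13 and -0.17 and the knockout libraries at -0.28, -0.33, -0.35, -0.38 and -0.30. Wild-type library 5 was the lowest of its group, yet above every knockout library. At day 4 the wild-type libraries stood at -0.09, -0.13, 0.29 and -0.12 and the knockout libraries at -0.41, -0.09, -0.19, -0.28 and -0.15. These day 4 values do not share a reference, since library 3 enters that of the other wild-type libraries, so libraries were also set side by side. In direct pairs the members' median difference, knockout minus wild type, was below 0 in all 20 pairs at day 4, from -0.72 to -0.05. Pairs of wild-type libraries ran from -0.32 to 0.32 and pairs of knockout libraries from -0.15 to 0.38. Pairs within a group were taken as the later minus the earlier library number, so their sign is arbitrary. The 20 pairs between groups reuse 4 wild-type and 5 knockout libraries. Their median of -0.20 lay within the range of the wild-type pairs and, sign aside, of the knockout pairs. For knockout library 2 the difference was -0.05, -0.07, -0.32 and -0.07 against wild-type libraries 1 to 4. The pairs between groups ran from -0.46 to -0.34 in culture and from -0.49 to -0.18 in Rag1-/- hosts. Over all other tested genes the median shift of single libraries stayed between -0.03 and 0.02. Without wild-type library 3 the members' day 4 median was -0.15, with 42 of 55 below 0, and 47 members were nearer to 0 or above it. Bckdha then stood at -0.17 in place of -0.33, Exosc5 at -0.11 in place of -0.25, Rpl13a at -0.26 in place of -0.40 and Xrcc1 at -0.03 in place of -0.10. Without that library Atf5 was at -0.05, Pold1 at -0.13, Ccne1 at 0.19, Prmt1 at 0.09 and Cox6b1 at 0.09, against -0.11, -0.08, 0.10, 0.01 and -0.04 over all day 4 libraries. The same library held the highest skeletal muscle marker sum of the wild-type group, 1142 RPM, whose part in its values was not tested.

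The share of all library reads that fell in the members was 1.16% ± 0.0282 (SD, n = 3) in wild-type culture, where the knockout share was 0.874% ± 0.00578 (n = 2). For the Rag1-/- tumours it was 0.973% ± 0.0480 (n = 5) and 0.792% ± 0.0191 (n = 5). At day 4 it was 1.31% ± 0.111 (n = 4) and 1.12% ± 0.0875 (n = 5), and at day 6 it was 0.818% ± 0.0417 (n = 4) with IgG and 0.946% ± 0.0943 (n = 4) with antibody. The knockout libraries were all below the wild-type libraries in culture and in Rag1-/- hosts. At day 4 the knockout libraries reached up to 1.23% and the wild-type libraries down to 1.21%.

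**Figure D3:**
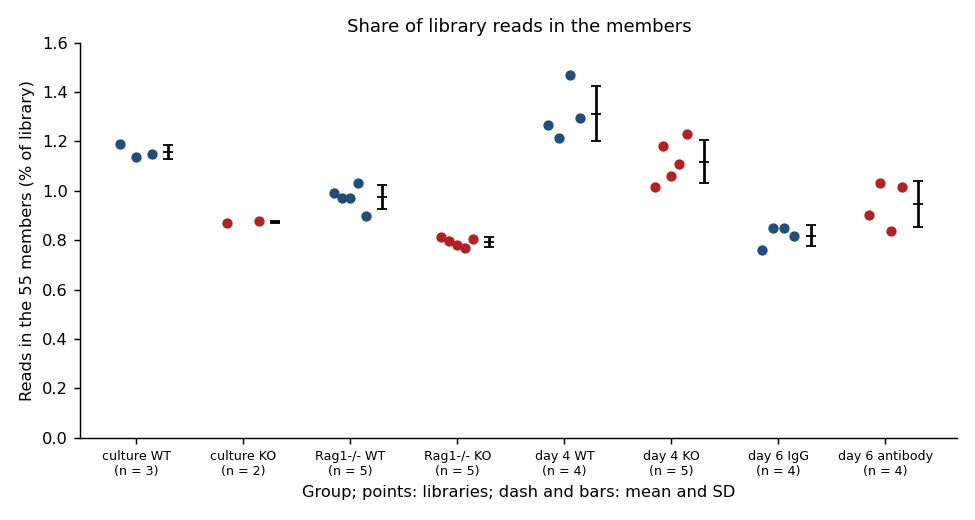
Percent of each library's reads that fell in the 55 members (points), with the mean and SD of each group as dash and bars. Culture and Rag1-/- knockout libraries lie below all their wild-type counterparts, while the day 4 groups meet near 1.21% to 1.23%.

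Sums of markers of other cell types at day 4 overlapped between the groups except for keratinocytes. The 5 keratinocyte markers (Krt5, Krt14, Krt10, Krt1 and Lor) summed to between 0.688 and 1.32 RPM in wild-type libraries, with Lor at 0, and to between 12.4 and 589 RPM in knockout libraries. The 7 fibroblast markers summed to a median of 4604 RPM (3367 to 12898) in wild-type and 12272 RPM (4093 to 16707) in knockout libraries. The 5 endothelial markers had medians of 224 RPM (66.3 to 289) and 437 RPM (214 to 868), and the 5 adipocyte markers 110 RPM (34.5 to 394) and 532 RPM (127 to 5076). The 5 skeletal muscle markers had medians of 95.0 RPM (9.81 to 1142) in wild-type and 12.4 RPM (6.24 to 2287) in knockout libraries, and all 5 had a difference below 0. The 10 leukocyte markers ran from 424 to 889 RPM in wild-type and from 347 to 973 RPM in knockout libraries. Of the tested markers, none of 5 endothelial (differences of 1.07 to 1.29), 5 adipocyte (2.38 to 4.07) or 3 keratinocyte ones (1.46 to 7.44) was below 0. Below 0 were 1 of 7 fibroblast and 3 of 8 leukocyte markers. None of these was called by limma. The part of these cell types in the members' day 4 values was not tested. The ranges of the leukocyte, fibroblast, endothelial, adipocyte, muscle, keratinocyte and epithelial sums overlapped between the groups in Rag1-/- hosts. The 7 fibroblast markers there had a median difference of -0.45, with 5 below 0. Of these 7, limma called 1 lower and 1 higher, where 11.4% and 11.3% of all tested genes were. In culture, where other cell types were not part of the labelled sample, the sum of the 9 leukocyte markers in the table was 16.2 to 50.3 RPM in wild-type and 29.7 to 51.7 RPM in knockout cells, with Cd3e at 0 in both. The 7 fibroblast markers summed to 99.2 to 156 RPM in wild-type and 361 to 837 RPM in knockout cells, with Lum at 0 in both, and the part of these markers in the culture values was not tested.

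**Figure D4:**
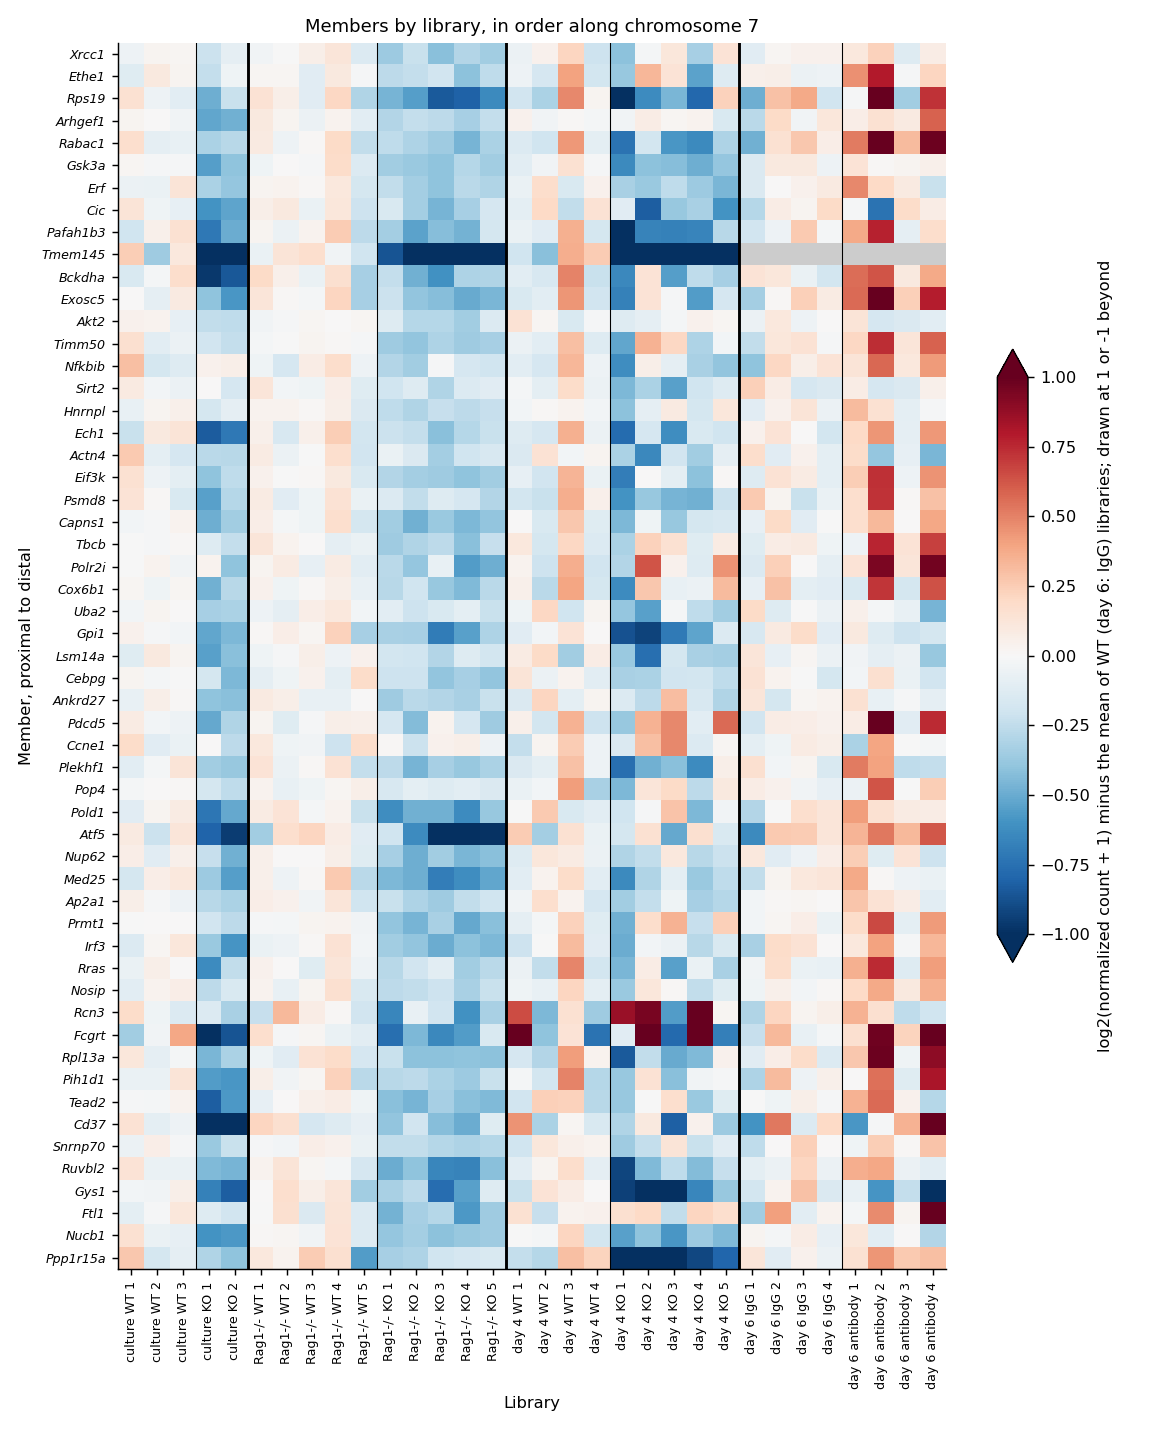
Log2(normalized count + 1) of each member (rows, proximal to distal along chromosome 7) in each of the 32 libraries (columns), minus the mean of the wild-type (day 6: IgG) libraries of its table; blue is lower, red is higher and grey was too low to test. The knockout columns of culture and of Rag1-/- hosts are blue for most members from top to bottom, and the day 4 knockout columns are mixed.

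Among genes of translation, Rps19 (chromosome 7, 24884371 to 24889806, plus strand), which encodes a protein of the small ribosomal subunit, had normalized counts of 2116, 1994, 1768, 2208 and 1555 in wild-type against 1384, 1309, 1068, 1091 and 1229 in knockout tumours of Rag1-/- hosts. Every knockout library was below every wild-type library, with means of 1928 ± 266 and 1216 ± 136 (SD, n = 5 each) and a log2 difference of -0.66. In culture the wild-type values were 3425, 2984 and 2873 and the knockout values 2203 and 2643, a difference of -0.35 without overlap. At day 4 they were 10556, 9684, 16771 and 12231 (wild type) against 5185, 7764, 8767, 6976 and 14151 (knockout), and knockout library 5 was above 3 wild-type libraries. Rpl13a (45125558 to 45128761, minus strand), which encodes a protein of the large subunit, shared its strand with the annotated gene Gm45713, so its reads are uncertain. It had 14311, 13601, 16270.2, 16755 and 13096 in wild-type against 12606, 11119, 11074, 11143 and 11086 in knockout tumours of Rag1-/- hosts, a difference of -0.37 without overlap. Its differences were -0.39 in culture and -0.40 at day 4. Eif3k, a subunit of the initiation factor eIF3, made up the third gene of this group, and the group's medians were -0.35, -0.37 and -0.40.

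The 6 genes of RNA processing and export had medians of -0.33 in culture, -0.27 in Rag1-/- hosts and -0.17 at day 4. Snrnp70 (45376453 to 45395742, minus strand), the protein of the U1 spliceosomal particle that contacts its RNA, had 8328, 8219, 8762, 8637 and 8025 in wild-type against 7065, 7090.4, 6867, 6777 and 6885 in knockout tumours of Rag1-/- hosts. The 2 sets were each tight and did not overlap, with a difference of -0.27. Hnrnpl (28808541 to 28822266, plus strand), a splicing regulator, had 12927, 13858 and 14061 in wild-type cultures against 12076 and 12797 in knockout cultures. The groups touched closely without overlapping, and the difference was -0.13, among the smallest of the members. Hnrnpl in Rag1-/- hosts had 8444, 8470.3, 8345, 8618 and 7480.1 (wild type) against 6934, 6694, 7043, 6891 and 7028 (knockout), a difference of -0.26, and at day 4 the difference was -0.09 with overlap. Pop4 (38261996 to 38271423, minus strand), a subunit of RNase P and RNase MRP, had 1507, 1400.1, 1433, 1497 and 1533 (wild type) against 1319.9, 1374, 1345, 1369.9 and 1332 (knockout) in Rag1-/- hosts, a difference of -0.13 without overlap. Exosc5, a subunit of the RNA exosome, had differences of -0.49, -0.40 and -0.25.

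Of the 9 transcription genes, 8 lay below 0 in culture, 9 in Rag1-/- hosts and 8 at day 4. Atf5 (44812256 to 44816658, minus strand), a stress-responsive bZIP transcription factor, overlaps Nup62 and Il4i1 on the other strand. It had 516, 417 and 525 in wild-type cultures against 277 and 249.9 in knockout cultures, and means of 486 ± 59.9 (n = 3) and 263 ± 19.0 (n = 2). Its counts in Rag1-/- hosts were 2298, 3289.8, 3383, 3075 and 2707 (wild type) against 2549.7, 1888, 1213, 1417 and 1473 (knockout), with knockout library 1 above wild-type library 1 and the other 4 knockout libraries below the whole wild-type group. The differences were -0.88 and -0.82, and at day 4 the difference was -0.11, with overlap. Cic (25267704 to 25294159, plus strand), the capicua repressor that acts below receptor tyrosine kinase signalling, had 8497, 7570.3 and 7345 (wild type) against 5148 and 5404 (knockout) in culture, a difference of -0.56 without overlap. It had -0.29 in Rag1-/- hosts and -0.45 at day 4, with overlap in both.

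The 3 genes of DNA replication, repair and cell cycle differed among themselves. Pold1 (44532746 to 44548849, minus strand), the catalytic subunit of DNA polymerase delta, had 3774, 3923, 3523, 3654 and 3062 in wild-type against 2329, 2559.9, 2566, 2313 and 2743 in knockout tumours of Rag1-/- hosts. Its groups did not overlap there or in culture, where the values were 8344, 9171 and 9539.6 (wild type) against 5465 and 6323 (knockout). The differences were -0.52 and -0.62, and at day 4 the difference was -0.08 with overlap. Ccne1 (38097984 to 38107534, minus strand), cyclin E1, which drives entry into DNA synthesis, had 2194, 1785 and 1852 (wild type) against 1940.1 and 1611 (knockout) in culture and 958, 865, 867, 773 and 1005 (wild type) against 898, 768, 919, 928 and 857 (knockout) in Rag1-/- hosts. At day 4 it had 768, 923, 1076 and 874 in wild-type against 817, 1113, 1258, 822 and 917 in knockout tumours. Its groups overlapped in every table, with differences of -0.13, -0.03 and 0.10. Ccne1 lies between Uri1 and Plekhf1, which were both lower in Rag1-/- hosts, with differences of -0.24 and -0.35. Xrcc1, a scaffold of single-strand break repair, was the third gene of this group, with -0.15, -0.33 and -0.10.

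Protein folding, modification and turnover was represented by 8 members, with medians of -0.38, -0.24 and -0.23. Prmt1 (44975989 to 44986568, minus strand), the main asymmetric arginine methyltransferase, had 7139.5, 7086, 7345, 7368 and 7036 in wild-type against 5463, 5219.8, 5738, 5055 and 5385 in knockout tumours of Rag1-/- hosts. The groups stood well apart, with means of 7195 ± 152 and 5372 ± 258 (n = 5 each) and a difference of -0.42. Prmt1 differed by -0.23 in culture without overlap, and by 0.01 at day 4 with overlap. Ppp1r15a, which directs the phosphatase that reverses eIF2 phosphorylation, was singled out after its values were seen. It had 2823, 2739, 4116 and 3888 in wild-type against 1667, 1369, 1556, 1772 and 1921 in knockout tumours at day 4, all 5 knockout libraries below, a difference of -1.02. In Rag1-/- hosts it had a difference of -0.23 and was among the 5 members not called by limma, with Nfkbib, Actn4, Pdcd5 and Ccne1.

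The 4 genes of kinase and small GTPase signalling had medians of -0.46, -0.26 and -0.15. Arhgef1 (24902912 to 24926594, plus strand), a guanine nucleotide exchange factor, had 8480.4, 8369 and 8152 (wild type) against 5820.3 and 5979 (knockout) in culture. Its Rag1-/- values were 3295, 3136, 2956, 3153 and 2861 (wild type) against 2509, 2608, 2566, 2441 and 2613 (knockout). Neither pair of groups overlapped, with differences of -0.50 and -0.27. At day 4 its values were 3115, 2956, 3052 and 2989.7 (wild type) against 2955, 3194, 3062, 3098 and 2721 (knockout), a difference of -0.01, so the day 4 libraries did not show the lower level seen in the other tables. Akt2, Gsk3a and Rras, which encode 2 serine-threonine kinases and a small GTPase of the Ras family, differed by -0.24, -0.35 and -0.24 in Rag1-/- hosts.

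All 10 members of mitochondria and metabolism lay below 0 in culture and in Rag1-/- hosts, and 9 did at day 4. Gys1 (45434844 to 45456619, plus strand), muscle-type glycogen synthase, overlaps Ruvbl2 on the other strand. It had 9983, 9912 and 10608 in wild-type cultures against 6351 and 5729.9 in knockout cultures, and 8377, 10768, 10307 and 9797 (wild type) against 5111, 3538, 4891, 6202 and 7516 (knockout) at day 4, without overlap in either. The differences were -0.75 and -0.89. Gys1 in Rag1-/- hosts had 3991, 4467, 4137, 4332 and 3137 (wild type) against 3186, 3315, 2346, 2729 and 3646 (knockout), with 3 knockout libraries above wild-type library 5 and a difference of -0.40. Bckdha, a subunit of the branched-chain keto acid dehydrogenase, had 3242, 3545 and 4067 (wild type) against 1849 and 1997 (knockout) in culture, a difference of -0.91, followed by -0.39 and -0.33. Ftl1 (45457944 to 45459884, minus strand), ferritin light chain, whose reads may be shared with near-identical copies, had 9497, 10669.9, 8656, 10409.7 and 8675 (wild type) against 6894, 7582, 7819, 6412 and 7453 (knockout) in Rag1-/- hosts, without overlap. Its difference was -0.40 there and 0.10 at day 4. Ethe1 (24587543 to 24608925, plus strand), a mitochondrial enzyme of sulfide oxidation, had 1101, 1099, 1002, 1159 and 1074 (wild type) against 904, 921, 953, 817 and 909 (knockout) in Rag1-/- hosts, a difference of -0.27 without overlap. In culture Ethe1 differed by -0.14, with knockout library 2 above wild-type library 1.

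Actn4 (28893248 to 28962340, minus strand), an actin-crosslinking alpha-actinin, led the 3 cytoskeletal members and had 49712, 38795 and 36908 (wild type) against 34452 and 34123 (knockout) in culture. Both knockout libraries were below the wild-type libraries, of which parental library 1 was the highest, and the difference was -0.27. In Rag1-/- hosts it was -0.18 and at day 4 -0.32, with overlap. Nucb1 (45490458 to 45510406, minus strand), a calcium-binding protein of the Golgi, stood without overlap in all 3 knockout comparisons. Its values were 18121, 15574 and 15426 (wild type) against 10816 and 10954 (knockout) in culture, 9662, 9729, 9352, 10533 and 8717 (wild type) against 7321, 7584, 7209, 7359.6 and 7501 (knockout) in Rag1-/- hosts, and 12194, 12047, 14197 and 10758 (wild type) against 8391, 9253, 8195, 9531 and 8989.8 (knockout) at day 4. The differences were -0.58, -0.37 and -0.47. Rabac1, a Golgi protein that binds prenylated Rab GTPases, had 3551, 3221, 3367, 3799.5 and 2818 in wild-type against 2793, 2695, 2605, 2416 and 2676 in knockout tumours of Rag1-/- hosts, without overlap, and a difference of -0.34. At day 4 it had 3556, 3414, 5296 and 3665 (wild type) against 2354, 3443, 2623, 2526 and 3162 (knockout), with overlap and wild-type library 3 the highest. The 9 members of membrane traffic and membrane proteins had medians of -0.41, -0.35 and -0.27.

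**Figure D5:**
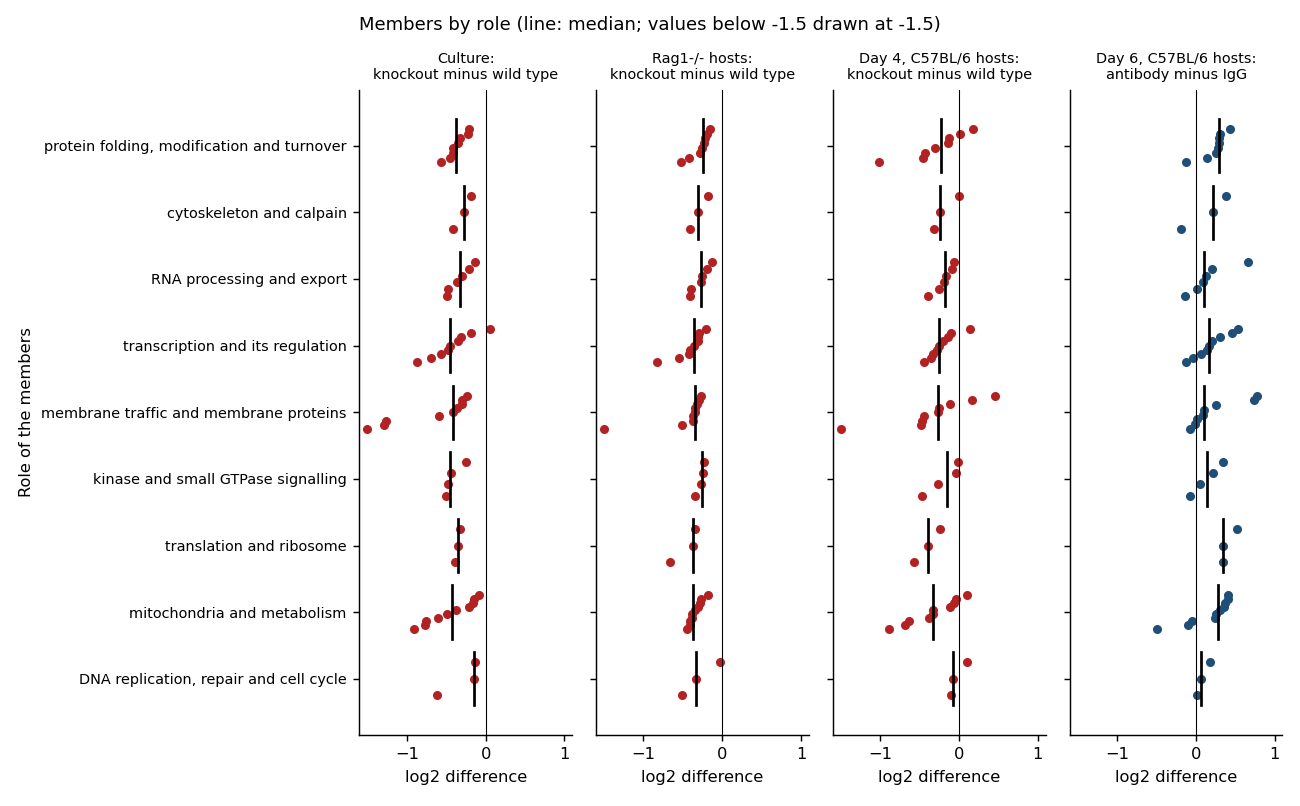
Log2 difference of each member (points) in the 4 comparisons, by role, with the median of each role as a line. In culture, in Rag1-/- hosts and at day 4 every role has a median below 0, and at day 6 every role has a median above 0.

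The largest difference of the members belonged to Tmem145 (25306106 to 25316195, plus strand), which encodes a membrane protein. In culture it had 59.8, 38.9 and 54.1 in wild-type cells, and the knockout cells had 1.05 and 0.965. Those knockout values rest on 2 reads in all, against 153 reads in wild-type cells, a ratio of RPM of 0.0196 with a 95% exact counting interval of 0.00235 to 0.0721. In Rag1-/- hosts it had 105, 121, 124, 107 and 95.9 (wild type) against 60.1, 27.4, 35.0, 46.0 and 31.5 (knockout), a difference of -1.49, and at day 4 36.3, 30.9, 54.1 and 49.9 (wild type) against 3.74, 4.62, 10.2, 11.9 and 1.11 (knockout), a difference of -2.82. No group overlapped.

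Its neighbours shared the direction. Prr19 (25301411 to 25304132, plus strand), which is no listed gene and takes part in meiotic recombination, had 937, 711 and 747 in wild-type cultures against 62.9 and 34.7 in knockout cultures. It had 481, 447, 469, 484 and 392 (wild type) against 171, 181, 144, 171 and 180.1 (knockout) in Rag1-/- hosts, and 438, 487, 733 and 482 (wild type) against 40.2, 81.6, 89.2, 137 and 73.3 (knockout) at day 4. The groups were apart each time, with differences of -4.05, -1.42 and -2.73. On the other side of Prr19 lies Pafah1b3 (25295049 to 25297986, minus strand), a catalytic subunit of platelet-activating factor acetylhydrolase. Its values were 2843, 3369.8 and 3617 (wild type) against 1987 and 2306 (knockout) in culture and 2960.1, 2866, 3949 and 2733 (wild type) against 1417, 1945, 1934, 1959 and 2556 (knockout) at day 4, without overlap. The differences were -0.61, -0.39 and -0.68, so Tmem145 and Prr19 lay further below their wild-type level than this adjacent gene.

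Other genes of the segment, taken by the same kind of rule in Rag1-/- hosts, showed that the pattern had exceptions. Cpt1c (44959372 to 44974851, minus strand), a brain-type carnitine palmitoyltransferase, had 171, 179.8 and 193 (wild type) against 16.8 and 6.75 (knockout) in culture and 109.6, 90.7, 97.9, 88.0 and 95.9 (wild type) against 41.5, 57.1, 33.0, 37.6 and 52.2 (knockout) in Rag1-/- hosts. It was lower in both without overlap, and at day 4 its difference was -0.04. Lgals7 (28863853 to 28866284, plus strand), galectin-7, an epithelial lectin, had a difference of -1.04 in Rag1-/- hosts and 1.58 at day 4, where knockout values were 85.1, 129, 1081, 46.6 and 44.4 against wild-type values of 43.2, 35.0, 49.3 and 32.9. Napsa (44572380 to 44586862, plus strand), an aspartic protease, had -0.85 and 0.14. At day 4 none of these 3 genes had the clearly lower level seen in Rag1-/- hosts.
Zfp940 (29833620 to 29853669, minus strand), a zinc finger gene, had 34.7, 44.5, 50.1, 48.4 and 35.1 in wild-type against 72.4, 71.4, 82.5, 82.6 and 67.5 in knockout tumours of Rag1-/- hosts, and was higher without overlap, by 0.82.

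The listed genes under other symbols were lower in knockout libraries, as most members were. Supt5h, a subunit of the elongation factor DSIF, stood as Supt5 in the day 4 and day 6 tables. It had 12766, 13396 and 14350.4 (wild type) against 10472 and 10379 (knockout) in culture, 8664, 8397, 8215, 8311 and 7462 (wild type) against 6472, 6110.1, 5788, 6253 and 6688 (knockout) in Rag1-/- hosts, and 5610.0, 6673, 6303 and 6642 (wild type) against 4481, 3519, 4813, 4466 and 5119 (knockout) at day 4. Uri1, a prefoldin-like chaperone subunit, stood as C80913 in the culture and Rag1-/- tables. Its differences were -0.58, -0.24 and -0.41. For both genes, every knockout library was below every wild-type library in all 3 tables. That held for 50, 36 and 11 of the 55 members in culture, in Rag1-/- hosts and at day 4. Over all tested genes the shares were 17.7%, 7.14% and 3.85%.

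Many members encode 1 subunit of a larger complex, so the subunits encoded on other chromosomes were set beside them, each complex being taken whole whatever its values. These partners had median log2 differences of 0.07 in culture (n = 180), -0.07 in Rag1-/- hosts (n = 177) and -0.01 at day 4 (n = 184). The culture value was 0.12 without knockout library 1 and 0.02 without knockout library 2. With each library left out the day 4 value ran from -0.06 to 0.07, and it was above 0 without knockout library 1 (0.07), knockout library 4 (0.02) or wild-type library 3 (0.06). For Rag1-/- hosts limma called 28 partners lower and 12 higher, where 11.4% of all tested genes were called lower and 11.3% higher. The cytosolic ribosomal proteins had medians of 0.02 (n = 58), -0.14 (n = 58) and -0.13 (n = 60), and 14 were called lower and 1 higher in Rag1-/- hosts. The regulatory particle of the proteasome, to which the member Psmd8 belongs, had 0.17, 0.02 and 0.11 (n = 14), while Psmd8 had -0.41, -0.19 and -0.43. The other subunits of cytochrome c oxidase had 0.04, 0.01 and 0.06 (n = 9), and the member Cox6b1 had -0.38, -0.31 and -0.04. The 9 exosome partners of Exosc5 had 0.12, -0.13 and 0.11, and all 9 were below 0 in Rag1-/- hosts. In those hosts 119 of the 177 partners (67.2%) lay below 0, against 49.8% of tested genes outside the segment. All partners were below 0 there for the prefoldin-like chaperone complex (n = 5), the U1 particle (n = 7) and the AP2 clathrin adaptor (n = 2). None was for the branched-chain keto acid dehydrogenase (n = 3) or for cyclin E and CDK2 (n = 2).

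Across the 3 knockout comparisons 46 of the 55 members lay below 0 in all 3, and all 55 did in at least 2. The exceptions were Nfkbib in culture and Tbcb, Polr2i, Pdcd5, Ccne1, Ftl1, Fcgrt, Rcn3 and Prmt1 at day 4. The size of the difference in culture and in Rag1-/- hosts had a Pearson correlation of 0.82 across members, and 0.44 over the 54 without Tmem145. Between Rag1-/- hosts and day 4 it was 0.07 without Tmem145. These are descriptions across genes that share libraries and a segment. The 11 members with no overlap at day 4 were Pafah1b3, Tmem145, Gsk3a, Gys1, Nucb1 and Ppp1r15a, together with Erf, an ETS-family repressor, Sirt2, an NAD-dependent deacetylase, Cebpg, a bZIP factor, Ruvbl2, an AAA+ ATPase of chromatin remodelling and chaperone complexes, and Gpi1, the glycolytic phosphoglucose isomerase.

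At day 6, where the antibody was compared with IgG, 0 of 54 tested members were called by limma in either direction, as was 0.0% of all tested genes. The count was 0 members with edgeR too, where 0.0% of all tested genes were called, and with DESeq2, where 0.615% were called lower and 0.558% higher. An unadjusted p under 0.05 was reached by 10 members with limma (8.6% of all tested genes), 12 with edgeR (9.87%) and 13 with DESeq2 (11.5%). The smallest adjusted p of a member was 0.517 with limma, 0.490 with edgeR and 0.0914 with DESeq2. The members' median log2 difference, antibody minus IgG, was 0.21, with 11 of 54 below 0, against -0.01 over the tested genes outside the segment. The complex partners encoded on other chromosomes had a median of 0.23 (n = 184), the ribosomal proteins among them 0.35 and the cytochrome c oxidase subunits 0.46. The other genes of the segment had a median of 0.11. Outside the segment, chromosome 7 genes had a median of 0.11 before 15 Mb and 0.01 beyond 50 Mb. The medians of the members, the partners and the other segment genes rested in part on single libraries. Without antibody library 2 the members' median was 0.13 and that of the partners 0.11, and the other genes of the segment stood at 0.02 without IgG library 1 and at 0.04 without antibody library 4. Every antibody library was above every IgG library for 4 members (2.03% of all tested genes), namely Rabac1, Ppp1r15a, Atf5 and Nosip, an E3 ubiquitin ligase.

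By library the day 6 shift was -0.16, 0.09, 0.06 and -0.02 with IgG and 0.16, 0.40, -0.01 and 0.27 with antibody. Antibody library 3 lay among the IgG libraries, and library 2 was the highest. Exosc5, with the smallest unadjusted p of the members, had 1039, 1328, 1552 and 1394 with IgG and 1942, 2801, 1549 and 2260.2 with antibody. Its difference was 0.67 (SE 0.20, limma adjusted p = 0.517), with 3 antibody libraries above the whole IgG group. Rabac1 had 1288, 1994, 2166 and 1882 with IgG against 2582, 4437, 2239 and 3552 with antibody, with all 4 antibody libraries above the IgG libraries and a difference of 0.78 (SE 0.24, limma adjusted p = 0.517). Bckdha had 1688, 1663, 1469 and 1351 with IgG against 2259, 2374, 1645 and 1992 with antibody, a difference of 0.41 (SE 0.14, limma adjusted p = 0.517). Gys1 stood in the opposite direction, with 2714, 3143, 3777 and 2775 with IgG against 2919, 2041, 2608 and 1495 with antibody and a difference of -0.49 (SE 0.21, limma adjusted p = 0.517). None of these passed the threshold.

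Marker sums of several cell types had different medians in the day 6 arms, with ranges that overlapped. The epithelial markers summed to between 185 and 207 RPM with IgG and between 185 and 515 RPM with antibody. The skeletal muscle markers summed to a median of 669.6 RPM (119 to 5446) with IgG and 32.8 RPM (5.22 to 183) with antibody, and the adipocyte markers to 34.8 RPM (23.9 to 60.8) and 374 RPM (42.6 to 713). The keratinocyte markers summed to 0.343 to 1.01 RPM and 0.931 to 181 RPM. The ranges of all these lists, and of the leukocyte, fibroblast and endothelial ones, overlapped between the arms. The part of these cell types in the members' day 6 values was not tested.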

How the data were processed

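RNA was extracted with Trizol and sequenced from stranded TruSeq mRNA libraries, per the labels' protocols. The submitters' processing notes name CASAVA, TopHat, DESeq2 and the build mm10, with no version or role. How reads were counted, and whether by strand, is not given in the sources used here. The deposited signal is a normalized read count for each gene and library in 4 tables, scaled separately by the authors, so tests stay within a table. In each library the values were whole multiples of 1 step (tolerance 0.01), which gave back whole reads. The authors' 18 columns of means and comparisons were not used.

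Each table was fitted on its own with limma 3.58.1 (trend, R 4.3.3) on log2 values with a pseudocount of 1. Genes entered at a mean normalized count of at least 10, and p-values were adjusted over all of them by Benjamini-Hochberg at 0.05. A fold on this scale is understated for low genes. edgeR 4.0.16 and DESeq2 1.42.0 on the recovered reads, another pseudocount, filter or scaling, a replicate block and leaving out each library were alternatives. The fit was tested on simulated data. Replicate numbers were not taken as pairs in the main fit. At day 6 an IgG and an antibody library of the same number were correlated in their deviations from the group means. The correlations were 0.45, -0.20, -0.20 and 0.35 for numbers 1 to 4, which does not settle whether they are pairs. Positions are GENCODE's on GRCm38, matched by symbol or RefSeq synonym. Of the members, 20 overlap a gene on the other strand and 2 one on the same strand, whose reads may be mixed.

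The members and lists were chosen with earlier results of these data known. Named members are the 6 with the lowest and the 4 with the highest median over the 3 knockout estimates, the one of highest mean level in each role in Rag1-/- hosts, and the 3 of smallest p at day 6. Named other genes are the 4 lowest and 2 highest of the segment in Rag1-/- hosts at a mean of 50 or more, and those at its edges; 1 of the 2 highest is not reported here. Any further gene was named after its values were seen. Genes of the complexes and cell types come from textbook lists.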

Additional observations from a re-analysis of the deposited data

Results flagged for a closer look

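Of 136 sets of 4 or 5 libraries checked for a library far from the others, 8 stood out, and chance alone marks about 1 in 20 such sets. Of these, 4 belong to day 4 wild-type library 3. Its median member shift was 0.29, against -0.13 to -0.09 in the other 3. In that library Exosc5 had 2597 normalized counts (1674 to 1771 in the others), Rabac1 had 5296 (3414 to 3665) and Bckdha had 2336 (1422 to 1540).

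The other marked values were single genes. Hnrnpl was low in Rag1-/- wild-type library 5, at 7480 normalized counts against 8345 to 8618. Rpl13a was high in Rag1-/- knockout library 1, at 12606 against 11074 to 11143. Ftl1 was low in day 4 knockout library 3, at 24182 against 31997 to 33288. Arhgef1 was high in day 6 antibody library 4, at 5628 against 3919 to 4166.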

How the results depend on the processing

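In culture the members' median of -0.38 was -0.41 with quantile normalization and -0.40 with upper-quartile rescaling, and ran from -0.40 to -0.37 with each library left out. The count called lower in culture, 4 with limma, was 33 with DESeq2, 1 without limma's trend and 2 at a mean of 50 or more. It was 21 without wild-type library 1 and 0 without any one of the other libraries, where leaving out a knockout library assumes that the lone one left varies like the wild type. The culture median of the other segment genes ran from -0.47 to -0.39 with each library left out. At day 4, DESeq2 called 8 members where limma called 0, and the limma count ran from 0 to 2 with each library left out, the 2 without knockout library 5. The day 4 median of the other segment genes was -0.28 with quantile normalization, against -0.18. The day 4 members' median ran from -0.29 to -0.15, the Rag1-/- count called lower from 44 to 51, and the day 6 members' median from 0.13 to 0.27. With a replicate block the count called lower was 48 against 50 in Rag1-/- hosts and 0 at day 4 and day 6, and the members' median was -0.33, -0.25 and 0.21. The block used only numbers present in both groups, so at day 4 it left out knockout library 5, without which the unblocked count was 2. The block changed no other call; it could not be fitted in culture, whose labels carry no numbers. Another 409 values of the comparisons and all 360 of the named members at day 6 kept their direction and side of the threshold under the alternatives run. The low counts of Tmem145 limit its values.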

Other observations

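Chromosome 5 stood highest of the 20 chromosomes in culture, with a median log2 difference, knockout minus wild type, of 0.34 over its tested genes. It was also the highest in Rag1-/- hosts, at 0.10, and stood at -0.01 at day 4. No gene of the list lies on it.

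Tmem145 had no read in any of the 4 IgG libraries at day 6 and 1, 3, 0 and 1 reads in the antibody libraries. Prr19, next to it, had 4.13, 4.98, 2.94 and 7.92 normalized counts with IgG and 4.51, 8.84, 9.05 and 4.41 with antibody. Ddr1 was at 15.9 to 28.5 RPM over all day 6 libraries, beside 19.0 to 26.7 RPM in knockout and 171 to 213 RPM in wild-type culture. The tables were normalized separately and were not compared by a test, and the day 6 labels give no genotype.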
